A study of Mus musculus with 41 samples.

Results

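The 29 genes described here are mouse orthologs of genes that human genetics ties to neurodegenerative disease. They were chosen by symbol, not by a measured value, though with earlier results of these data known. All are among the 24537 genes of the count table. They fall into 8 groups by role: 6 genes of endocytosis and endosomal sorting (Bin1, Picalm, Cd2ap, Rin3, Sorl1 and Vps35), 10 further genes of Alzheimer's disease loci with roles in lipid handling, signalling, adhesion and RNA (Abca7, Clu, Ptk2b, Epha1, Cass4, Fermt2, Abi3, Slc24a4, Celf1 and Zcwpw1), 4 genes of the amyloid precursor and its proteases (App, Psen2, Adam10 and Adam17), the tau gene Mapt, the Parkinson's disease kinase gene Lrrk2, 2 lysosomal genes of frontotemporal dementia (Grn and Tmem106b), 3 genes of autophagy and protein quality control linked to amyotrophic lateral sclerosis (Tbk1, Optn and Vcp) and 2 further genes of that disease (Tardbp and Sod1). Vps35, a subunit of the retromer complex, is also a Parkinson's disease gene.

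Microglia are the resident macrophages of the brain. Many Alzheimer's disease risk variants lie in or near genes that these cells use for endocytosis, lipid uptake and lysosomal degradation, while other disease genes such as those of tau and clusterin are known mainly from neurons and astrocytes. The amyloid precursor protein is cut by the α-secretases ADAM10 and ADAM17 or by β-secretase and then by γ-secretase, whose catalytic subunits are the presenilins. Optineurin is a receptor that brings ubiquitinated cargo to the autophagosome and is phosphorylated by TBK1, and the ATPase VCP extracts ubiquitinated proteins from membranes and complexes.

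Poly(A) RNA was sequenced from C57Bl6 mouse cells in 6 groups. Microglia cultured for 6 h (2 libraries), 24 h (3 libraries) or 7 d (5 libraries) were kept in DMEM/F12 with 5% fetal bovine serum and daily IL34, a ligand of the CSF1 receptor, and the label of 24 h replicate 2 gives 22 h. Microglia of 2 further libraries were cultured for 7 d with IL34 and TGFβ, also in 5% serum. The cultures were compared with microglia profiled directly after sorting, called ex vivo (5 libraries), and those with whole brain lysate (4 libraries). Ex vivo and 7 d microglia were also profiled for accessible chromatin (ATAC) and the active mark H3K27ac, and ex vivo microglia for H3K4me2 and the macrophage transcription factor PU.1, with 2 libraries pooled per peak list (1 of the 7 d ATAC libraries is labelled 8 d). The labels used here give no age or sex, and nothing in them says whether libraries of a group came from separate animals or cultures, so the p-values measure the spread between these libraries, which may be technical.

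The RNA libraries held 11584561 to 28841472 counts. The 9 microglial markers looked at (such as Cx3cr1, P2ry12 and Tmem119) summed to 45184 to 50021 CPM (counts scaled to library size) ex vivo and 224 to 334 CPM in the lysate. In the culture model they summed to 6290 to 6800 CPM at 6 h, 5433 to 6271 CPM at 24 h, 8531 to 10726 CPM at 7 d and 16728 to 18418 CPM at 7 d with TGFβ, against 38742 to 43064 CPM ex vivo. Ex vivo replicate 3 held the highest sum of choroid plexus and ependymal markers (108 CPM, against 0.813 CPM in the lowest ex vivo library) and of astrocyte markers (354 CPM, against 165 CPM in the lowest), and 7 d replicates 2 and 3 stood apart from the other 7 d libraries. Ex vivo replicates 2 and 3 held the highest sums of neutrophil markers (173 and 155 CPM, against at most 38.5 CPM in the other ex vivo libraries). They also held the highest sums of monocyte markers (44.7 and 31.1 CPM, against at most 8.90 CPM). Neuronal markers summed to 2.55 to 14.9 CPM ex vivo and to at most 4.16 CPM in any cultured library. Border macrophage markers summed to 3.08 to 4.14 CPM at 6 h, 4.14 to 4.91 CPM at 24 h, 193 to 228 CPM at 7 d and 60.9 to 84.4 CPM under TGFβ, against 6.95 to 89.1 CPM ex vivo. At 7 d, Ms4a7 (mean 131 CPM, against 0.632 CPM ex vivo) and Mrc1 (60.6 CPM, against 35.1 CPM) made up most of that sum, and Lyve1, Cd163 and Cbr2 averaged under 1 CPM. Oligodendrocyte precursor markers summed to 93.3 to 99.3 CPM at 6 h, 6.75 to 9.56 CPM at 24 h, 0.982 to 18.9 CPM at 7 d and 135 to 358 CPM under TGFβ, against 1.50 to 3.59 CPM ex vivo; nearly all of the 6 h and TGFβ sums was Cspg4, while Pdgfra and Olig1 had 0 counts in both groups. The part of such cells in the culture results was not tested.

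The first comparison asked which of these genes are used by microglia more than by the brain as a whole. Of the 29 members, 25 passed the threshold between ex vivo microglia and lysate (edgeR quasi-likelihood test, Benjamini-Hochberg adjusted p under 0.05), 15 higher and 10 lower in microglia. Over all 15335 genes tested, 82.7% passed, 39.1% higher and 43.5% lower, so the members' total lay close to that of all genes. Their median log2 fold change was 0.46 and that of all genes -0.10. In bulk samples, fewer cells of a type and less RNA per cell cannot be told apart. The lysate summed to 12904 to 14692 CPM of neuronal, 4211 to 6400 CPM of astrocyte and 3905 to 6970 CPM of oligodendrocyte markers, against 2.95 to 17.2, 192 to 408 and 99.9 to 228 CPM ex vivo.

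Grn, which encodes the lysosomal protein progranulin, had 1999, 1826, 2076, 1933 and 2317 CPM in the 5 ex vivo libraries, against 52.4, 53.9, 55.7 and 54.7 CPM in the 4 lysates. The groups lay far apart, a log2 fold change of 5.23 ± 0.14 (SE; edgeR adjusted p = 5.0e-11). Cass4, which encodes a scaffold protein of focal adhesions, had 61.6, 57.2, 66.1, 66.9 and 62.3 CPM ex vivo, against 0.636, 1.06, 0.831 and 0.917 CPM in the lysates (log2 fold change 6.16 ± 0.18, edgeR adjusted p = 6.4e-11). Rin3, which encodes an exchange factor for the endosomal GTPase Rab5, had 208, 159, 152, 204 and 240 CPM ex vivo, against 4.18, 4.83, 5.21 and 3.46 CPM in the lysates (log2 fold change 5.44 ± 0.21, edgeR adjusted p = 3.1e-10). Every ex vivo library lay above every lysate for these 3 genes.

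At the other end, Mapt had 0.376, 0.944, 3.40, 2.09 and 0.850 CPM ex vivo, against 679, 693, 574 and 652 CPM in the lysates (log2 fold change -8.70 ± 0.53, edgeR adjusted p = 5.2e-08). Fermt2, which encodes the integrin-binding adaptor kindlin-2, had 0, 0.145, 1.40, 0.334 and 0.131 CPM ex vivo, against 65.0, 60.9, 69.1 and 76 CPM in the lysates (log2 fold change -7.21 ± 0.58, edgeR adjusted p = 5.0e-07). The highest ex vivo value of Mapt and of Fermt2 was that of replicate 3. Slc24a4, which encodes a potassium-dependent sodium-calcium exchanger, had 0, 0, 0.233, 0.0836 and 0 CPM ex vivo, against 18, 21.4, 23.3 and 16.7 CPM in the lysates (log2 fold change -7.96 ± 0.50, edgeR adjusted p = 1.9e-08).

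Slc24a4 and Rin3 are neighbours. On mouse chromosome 12 (GRCm38) Slc24a4 spans chr12:102128727-102267133 and Rin3 spans chr12:102282840-102390854, with 15706 bp and no annotated gene between them. Their promoter windows (RefSeq, GRCm38.p6, plus strand, 250 bases before to 50 bases after the start) are printed because the neighbours lay at opposite ends of the comparison; chr12:102128477-102128776 is the window of Slc24a4 and chr12:102282824-102283123 that of Rin3, and capitals mark GAGGAA, a core of the PU.1 motif.
Slc24a4: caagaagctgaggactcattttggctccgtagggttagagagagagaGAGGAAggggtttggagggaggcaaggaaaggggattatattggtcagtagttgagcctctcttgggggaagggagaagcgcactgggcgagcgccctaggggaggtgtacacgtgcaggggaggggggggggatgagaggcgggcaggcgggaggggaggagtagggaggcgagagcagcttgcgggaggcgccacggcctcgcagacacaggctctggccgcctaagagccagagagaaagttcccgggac
Rin3: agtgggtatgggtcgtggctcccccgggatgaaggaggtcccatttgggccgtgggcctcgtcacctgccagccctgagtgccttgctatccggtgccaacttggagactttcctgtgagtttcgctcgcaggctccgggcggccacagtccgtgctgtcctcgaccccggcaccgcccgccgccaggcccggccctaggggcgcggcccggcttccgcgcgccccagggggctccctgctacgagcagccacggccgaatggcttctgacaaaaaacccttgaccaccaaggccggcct
The Slc24a4 window held 1 GAGGAA at -203 from the start base and the Rin3 window none. The Slc24a4 window overlapped an H3K4me2 peak only, and no ATAC, H3K27ac or PU.1 peak. The Rin3 window overlapped peaks of ATAC, H3K27ac, H3K4me2 and PU.1 ex vivo. A further Rin3 window, chr12:102283391-102283690, overlapped H3K27ac and H3K4me2 peaks and no ATAC or PU.1 peak. GAGGAA occurs on either strand in 28.3% of the 32851 windows of this kind, and in 9 of the 27 windows of members.

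The other members higher ex vivo than in lysate were Adam17 (log2 fold change 4.34), Abi3 (3.50), Picalm (3.33), Cd2ap (3.27), Adam10 (2.73), Zcwpw1 (2.54), Abca7 (2.26), Bin1 (1.82), Epha1 (1.81), Tbk1 (1.49), Psen2 (0.58) and Celf1 (0.46). Psen2 and Celf1 did not pass with RLE scaling or total counts in place of TMM, the second of which moved the median of all genes by -0.31. Celf1 did not pass with DESeq2 (0.17, DESeq2 adjusted p = 0.318), on the TPM scale (0.18, limma adjusted p = 0.294) or without ex vivo replicate 3, 4 or 5 (edgeR adjusted p = 0.0631 to 0.108). Clu, which encodes the secreted chaperone clusterin, had 0.0537, 1.23, 20.7, 4.93 and 3.79 CPM ex vivo, against 465, 572, 697 and 674 CPM in the lysates, and replicate 3 was again the highest. Lrrk2 fell to a mean of 1.31 CPM ex vivo, against 57.0 CPM in the lysates (log2 fold change -5.45). App, Optn, Sod1, Sorl1 and Ptk2b were lower ex vivo by 2.74, 2.04, 2.02, 1.25 and 1.19 on the log2 scale. Vps35, Tmem106b, Vcp and Tardbp did not pass the test (log2 fold changes 0.22, 0.15, -0.21 and -0.06), although Vcp passed as lower ex vivo with DESeq2 (-0.50, DESeq2 adjusted p = 0.000911) and without ex vivo replicate 3 or 4 (edgeR adjusted p = 0.0249 and 0.0263).

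**Figure D1:**
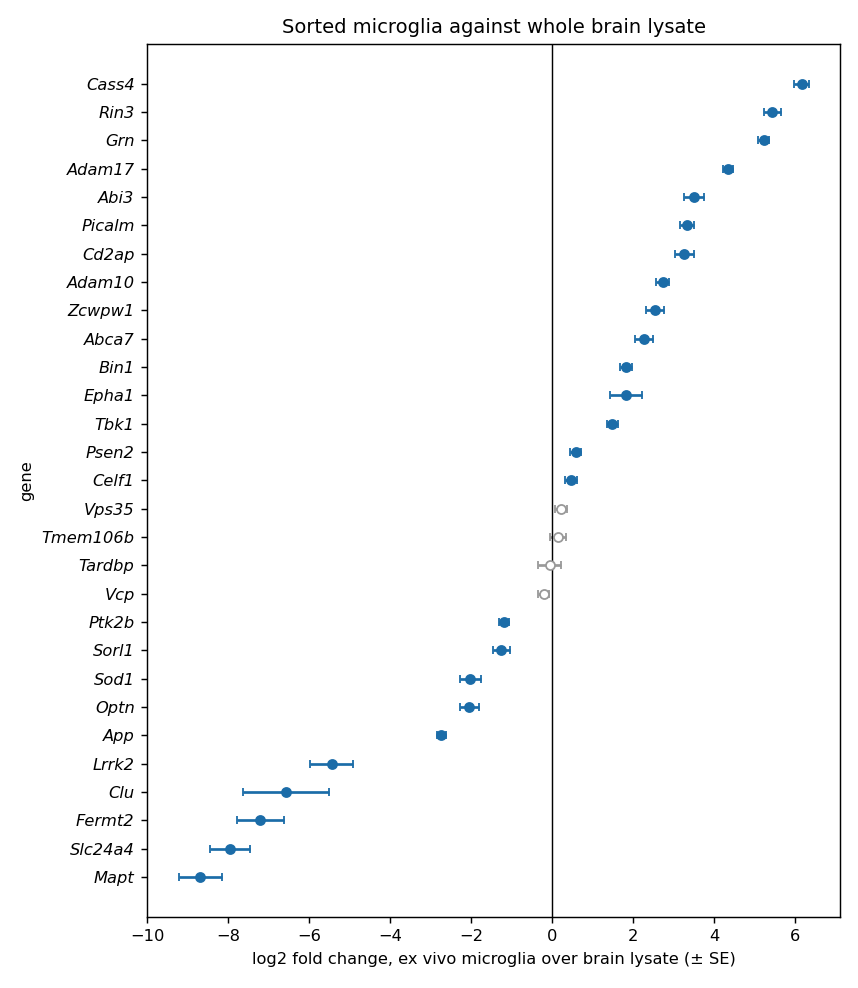
Log2 fold change of the 29 members in ex vivo microglia over brain lysate (x axis) with standard errors, from 5 ex vivo and 4 lysate libraries; filled points passed an adjusted p of 0.05. Cass4, Rin3 and Grn are at the top, between 5.23 and 6.16, and Mapt, Slc24a4 and Fermt2 at the bottom, between -8.70 and -7.21.

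Per length, on the deposited TPM scale (transcripts scaled to their length and to the library), the highest member level ex vivo was that of Grn, at 1452 ± 117 TPM (SD, n = 5). Bin1, which encodes a membrane-bending endocytic adaptor, averaged 638 ± 93.2 TPM and Picalm, a clathrin adaptor, 510 ± 109 TPM, and the ranges of these 2 neighbours in the order overlapped. Abi3, which encodes a subunit of an actin-regulating complex, followed at 264 ± 35.7 TPM, then Adam10 at 191 ± 43.7, Adam17 at 136 ± 12.3 and App at 121 ± 8.86 TPM. Optn averaged 2.18 ± 0.38 TPM ex vivo, and Epha1, Mapt, Lrrk2, Fermt2 and Slc24a4 lay below it. In the lysate the order was led by App (1020 ± 77.3 TPM, SD, n = 4), Clu (663 ± 115 TPM), Mapt (255 ± 11.8 TPM) and Ptk2b (242 ± 30.4 TPM). At 6 h of culture Grn was no longer among the 4 highest members, which were Picalm, Bin1, App and Adam17 at 546, 440, 361 and 246 TPM, and at 7 d it led again at 1717 ± 224 TPM (SD, n = 5).

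The culture comparisons asked how the genes change when microglia leave the brain. Against ex vivo, 23 of 27 members tested passed at 6 h (14 higher, 9 lower), 23 at 24 h (10 higher, 13 lower), 21 at 7 d (9 higher, 12 lower) and 19 at 7 d with TGFβ (9 higher, 10 lower). Of all 13840 genes tested, 68.0% passed at 6 h (31.2% higher, 36.8% lower), 62.8% at 24 h (29.6% and 33.1%), 70.5% at 7 d (34.8% and 35.7%) and 55.8% with TGFβ (28.3% and 27.5%). Fermt2 and Slc24a4 did not pass the filter on low counts in this model: Fermt2 had 7 counts at 6 h, 2 at 24 h, 16 at 7 d and, under TGFβ, 0, against 38 ex vivo, and Slc24a4 had 1, 0, 0 and 1 counts, against 6 ex vivo. The median log2 fold change of the members was 0.49 at 6 h, -0.68 at 24 h, -0.38 at 7 d and, under TGFβ, 0.01, and that of all genes -0.17, -0.06, -0.02 and -0.05. These 4 comparisons share the 5 ex vivo libraries. At 6 h the scaling matters most: total counts in place of TMM moved the median of all genes by -0.40, and Picalm, Abca7 and Tardbp then did not pass while Bin1, Cass4 and Adam10 passed as lower. With total counts 3068 genes were higher and 6322 lower at 6 h, against 4312 and 5099 with TMM, and with TGFβ the TPM scale gave 2419 higher and 4855 lower, against 3920 and 3801.

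Vps35, Ptk2b, App, Psen2, Optn, Vcp and Sod1 passed as higher in all 4 culture groups, and Cd2ap, Rin3, Clu, Abi3 and Zcwpw1 as lower in all 4. With TGFβ, the calls of Cd2ap, Clu and Zcwpw1 were lost when 1 of the libraries was left out. Picalm, Epha1, Celf1, Adam10 and Grn passed as higher in 1 or more groups and as lower in others, and the rest passed in some groups only.

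**Figure D2:**
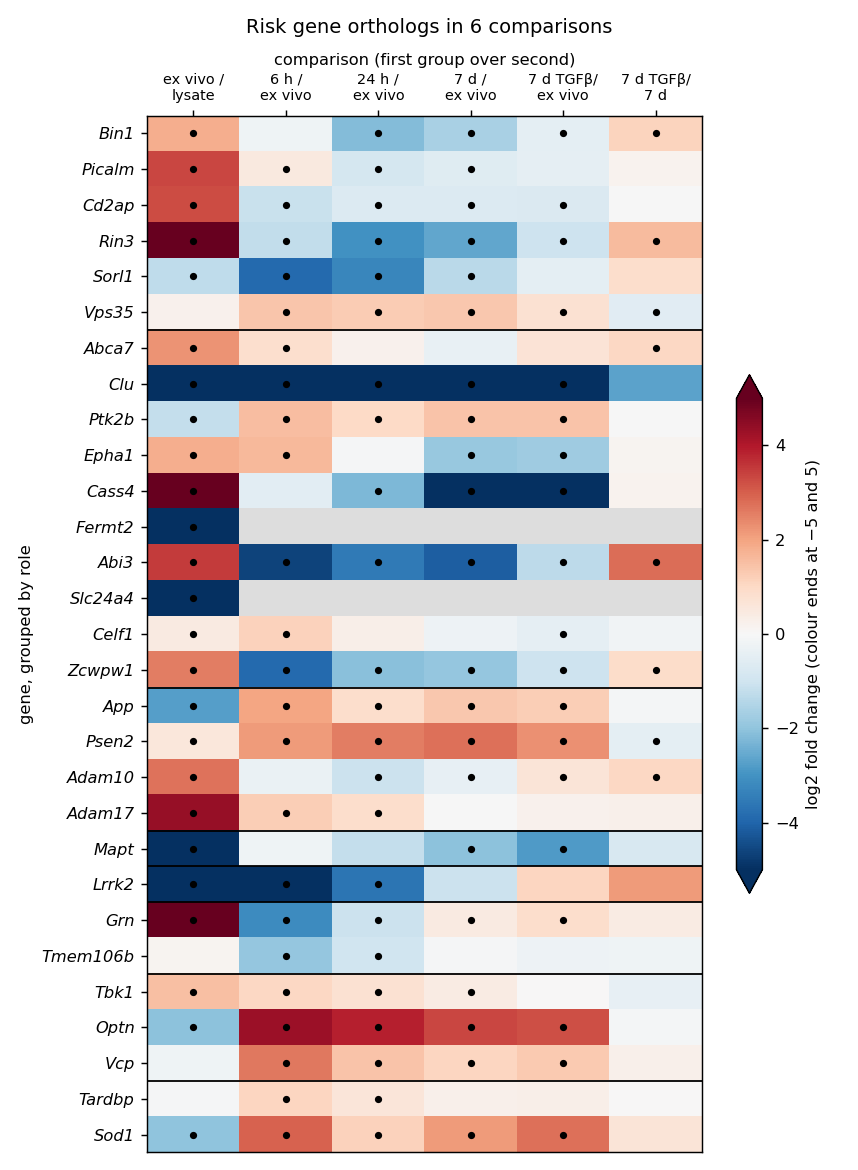
Log2 fold change (colour, red higher and blue lower in the first-named group) of the 29 members in 6 comparisons; a dot marks an adjusted p under 0.05, grey a gene below the count filter, and lines divide the groups by role. Rows such as Optn are red in every culture column, while Abi3 and Rin3 are blue there and red in the columns against lysate and against 7 d.

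Among the endocytosis genes, Rin3 was lower in every culture group. It had 69.4 and 69.9 CPM at 6 h, 17.2, 21.5 and 21.4 CPM at 24 h, 27.1, 25.5, 27.9, 26.7 and 28.7 CPM at 7 d and 87.4 and 75.3 CPM at 7 d with TGFβ. Ex vivo, Rin3 stood at 180, 137, 131, 175 and 204 CPM. All cultured libraries lay below all ex vivo libraries, and the 24 h libraries were the lowest. On the log2 scale Rin3 differed from ex vivo by -1.25 ± 0.17 at 6 h, -3.04 ± 0.16 at 24 h, -2.60 ± 0.12 at 7 d and, under TGFβ, -1.02 ± 0.16 (edgeR adjusted p = 4.3e-06, 6.1e-11, 2.2e-11 and 6.7e-05).

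Bin1 had 737 and 552 CPM at 6 h, 148, 173 and 173 CPM at 24 h, 240, 242, 248, 277 and 223 CPM at 7 d and, under TGFβ, 585 and 482 CPM. Ex vivo, Bin1 stood at 874, 595, 800, 643 and 828 CPM. The 6 h and ex vivo libraries overlapped, while the 24 h and 7 d libraries lay apart below both. The step between these times was tested directly: 24 h libraries were lower than 6 h libraries by 1.97 ± 0.18 on the log2 scale (edgeR adjusted p = 8.0e-07). Picalm averaged 1516 CPM at 6 h, 586 at 24 h and 701 CPM at 7 d, against 1078 CPM ex vivo, and was lower at 24 h than at 6 h by 1.37 (edgeR adjusted p = 0.00018). Its call as higher at 6 h (0.49 ± 0.21, edgeR adjusted p = 0.046) was lost on the TPM scale (0.11, limma adjusted p = 0.66), without 6 h replicate 1 (0.29, edgeR adjusted p = 0.388) and without ex vivo replicate 3, 4 or 5 (edgeR adjusted p = 0.0581 to 0.0751).

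Sorl1, a sorting receptor that carries cargo between endosomes and the Golgi, had 4.38 and 7.01 CPM at 6 h, 6.02, 11.9 and 8.59 CPM at 24 h, 36.6, 16.9, 22.2, 45.2 and 44.5 CPM at 7 d and, under TGFβ, 92.2 and 29.0 CPM. Ex vivo, Sorl1 stood at 65.0, 66.4, 65.2, 100 and 127 CPM. The 6 h and 24 h libraries lay below all others, and those with TGFβ spanned from the 7 d to the ex vivo level. It was lower than ex vivo by 3.90 ± 0.58 at 6 h, 3.26 ± 0.46 at 24 h and 1.36 ± 0.35 at 7 d on the log2 scale (edgeR adjusted p = 2.2e-05, 1.6e-05 and 0.0025), and higher at 7 d than at 24 h by 1.90 ± 0.43 (edgeR adjusted p = 0.0021). Vps35 moved the other way, with means of 370 CPM at 6 h, 347 at 24 h and 360 CPM at 7 d, against 143 CPM ex vivo (log2 fold changes 1.37, 1.28 and 1.33). Cd2ap, which encodes an adaptor between receptors and actin, was lower in culture by 0.68 to 1.13 on the log2 scale.

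The promoter of Picalm is printed because it alone among the members' windows held the CLEAR motif: capitals mark 2 copies of TCACGTGA, the core of the CLEAR element bound by the lysosomal regulator TFEB, with their first bases at -192 and -2, and 2 of GAGGAA at -57 and -31 (RefSeq, GRCm38.p6, plus strand, chr7:90129963-90130262).
Picalm: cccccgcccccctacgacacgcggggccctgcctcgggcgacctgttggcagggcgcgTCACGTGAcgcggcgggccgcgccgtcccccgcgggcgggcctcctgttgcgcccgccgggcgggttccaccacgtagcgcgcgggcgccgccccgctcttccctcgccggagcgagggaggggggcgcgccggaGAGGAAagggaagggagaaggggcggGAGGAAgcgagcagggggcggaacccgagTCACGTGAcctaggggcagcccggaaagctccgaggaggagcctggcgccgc
TCACGTGA occurs in 0.974% of the 32851 windows and in 1 of the 27 windows of members. The AP-1 motif TGANTCA, in 7.81% of windows on either strand, was in 0 of the 27. A match of letters is a description and not a measured site.

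Of the genes of lipid handling, signalling and adhesion, Abi3 was high ex vivo and low in every culture without TGFβ. It had 17.6 and 24.3 CPM at 6 h, 44.0, 50.0 and 39.5 CPM at 24 h, 42.6, 17.8, 23.3, 29.1 and 35.2 CPM at 7 d and, under TGFβ, 224 and 190 CPM. Ex vivo, Abi3 stood at 506, 418, 510, 556 and 601 CPM. Cultures without TGFβ lay far below, and those with TGFβ between these and ex vivo. The differences from ex vivo on the log2 scale were -4.63 ± 0.33 at 6 h, -3.54 ± 0.26 at 24 h, -4.13 ± 0.21 at 7 d and, under TGFβ, -1.32 ± 0.27 (edgeR adjusted p = 2.4e-09, 3.6e-09, 5.2e-11 and 0.00053). The rise between 6 h and 24 h (1.09, edgeR adjusted p = 0.0056) did not pass without 6 h replicate 1 (0.86, edgeR adjusted p = 0.107), and the fall between 24 h and 7 d (-0.59, edgeR adjusted p = 0.033) did not pass without 7 d replicate 2, 3 or 4 or 24 h replicate 1 or 2 (edgeR adjusted p = 0.0524 to 0.122), nor without 7 d replicates 2 and 3 together (-0.33, edgeR adjusted p = 0.141).

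Abi3 overlaps Phospho1 and Gngt2, and no source used here says whether counting used the strand, so reads of overlapping genes may have been shared. Gngt2, a G protein subunit gene, averaged 52.5 CPM with TGFβ, 7.37 CPM at 7 d and 33.2 CPM ex vivo, and Phospho1 41.0, 22.2 and 68.9 CPM. Zcwpw1, which encodes a histone reader, had 2.34 and 1.38 CPM at 6 h, 5.85, 6.53 and 7.13 CPM at 24 h, 4.79, 10.6, 9.07, 6.73 and 4.35 CPM at 7 d and, under TGFβ, 12.0 and 15.0 CPM. Ex vivo, Zcwpw1 stood at 37.4, 25.9, 28.2, 25.9 and 20.2 CPM. Zcwpw1 was lowest at 6 h and no cultured library reached an ex vivo one (log2 fold change -3.88 ± 0.40 at 6 h, edgeR adjusted p = 2.3e-07). Its overlapping neighbour Pilra, an inhibitory receptor gene of myeloid cells, averaged 0.689 CPM at 6 h, 2.72 at 24 h, 6.48 at 7 d and, under TGFβ, 29.1 CPM, against 20.1 CPM ex vivo, and the part of shared reads in the values of Zcwpw1 was not tested.

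Cass4 fell step by step in time. It had 35.0 and 40.2 CPM at 6 h, 12.3, 11.8 and 10.4 CPM at 24 h, 1.51, 1.89, 1.23, 2.30 and 0.341 CPM at 7 d and, under TGFβ, 1.28 and 1.98 CPM. Ex vivo, Cass4 stood at 53.2, 49.3, 57.2, 57.3 and 52.9 CPM. No 2 of these stages overlapped, apart from the 7 d groups with and without TGFβ. The log2 fold change against ex vivo was -0.52 ± 0.33 at 6 h, which did not pass (edgeR adjusted p = 0.17), -2.23 ± 0.31 at 24 h, -5.20 ± 0.30 at 7 d and, under TGFβ, -5.03 ± 0.45 (edgeR adjusted p = 8.4e-06, 2.0e-10 and 1.2e-07). The steps of -1.71 between 6 h and 24 h and -2.97 between 24 h and 7 d passed too (edgeR adjusted p = 0.00092 and 7.9e-07).

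Clu was near its detection limit in every culture and its ex vivo level differed between libraries. It had 0 counts at 6 h and with TGFβ, 9 counts in 1 of the 3 libraries at 24 h and 4 counts in 2 libraries at 7 d, against 1, 17, 445, 59 and 58 counts ex vivo. Set against a limit of 3 counts in the whole group, it was at least 76.9-fold lower at 6 h and at least 103-fold lower with TGFβ; without ex vivo replicate 3 these bounds were 24.3-fold and 32.5-fold, and they cover counting error only. Ex vivo replicate 3, with 445 of the 580 ex vivo counts, also held the highest choroid plexus and astrocyte marker sums, whose part in the difference was not tested. The calls at 6 h and with TGFβ did not pass when either library of those groups was left out (edgeR adjusted p = 0.0564 to 0.0723).

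Ptk2b, which lies 171708 bp from Clu on chromosome 14 and encodes the calcium-activated tyrosine kinase PYK2, averaged 519 CPM at 6 h, 355 at 24 h, 476 at 7 d and, under TGFβ, 476 CPM, against 176 CPM ex vivo (log2 fold changes 1.56, 1.01, 1.44 and 1.44). Epha1, an ephrin receptor gene, averaged 6.42 CPM at 6 h, 2.00 at 24 h and 0.549 CPM at 7 d, against 2.07 CPM ex vivo. It passed as higher at 6 h (1.63 ± 0.39) and lower at 7 d (-1.90 ± 0.34), and the difference between 7 d and 6 h was -3.53 (edgeR adjusted p = 9.1e-07). Its overlapping neighbour Zyx averaged 302 CPM at 6 h, 211 at 24 h and 143 CPM at 7 d, against 135 CPM ex vivo. Celf1, an RNA-binding protein gene, passed as higher at 6 h (1.17) and, with TGFβ, as lower (-0.45, edgeR adjusted p = 0.044), a call lost without TGFβ replicate 2 (-0.26, edgeR adjusted p = 0.392) or ex vivo replicate 2, 3 or 4 (edgeR adjusted p = 0.053 to 0.0786). Abca7, a lipid transporter gene, passed against ex vivo at 6 h (0.84, edgeR adjusted p = 0.027) and in no other culture group, but its calls depended on the fit. The 6 h call was lost on the TPM scale (0.49, limma adjusted p = 0.2) and without 6 h replicate 1 or 2 or ex vivo replicate 2 or 3 (edgeR adjusted p = 0.056 to 0.154). On the TPM scale Abca7 passed as lower at 7 d (-0.64, limma adjusted p = 0.0306), and with the replicate block it passed at 24 h, at 7 d and under TGFβ (0.54, -0.46 and 0.99; edgeR adjusted p = 0.0198, 0.0378 and 0.00354).

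All of the amyloid group passed somewhere in culture. Psen2, which encodes presenilin 2, had 76.9 and 76.3 CPM at 6 h, 90.9, 115 and 102 CPM at 24 h, 138, 96.6, 107, 123 and 130 CPM at 7 d and, under TGFβ, 88.8 and 82.5 CPM. Ex vivo, Psen2 stood at 15.4, 17.1, 19.6, 17.9 and 18.2 CPM. Each cultured library lay above every ex vivo library. Psen2 rose on the log2 scale by 2.12 ± 0.13 at 6 h, 2.54 ± 0.12 at 24 h, 2.75 ± 0.12 at 7 d and, under TGFβ, 2.28 ± 0.13 (edgeR adjusted p = 6.4e-10, 3.0e-11, 5.2e-12 and 9.8e-10). App had 824 and 783 CPM at 6 h, 395, 360 and 396 CPM at 24 h and 513, 530, 512, 522 and 551 CPM at 7 d. Ex vivo, App stood at 201, 202, 226, 206 and 200 CPM. It was highest at 6 h and 24 h libraries were lower than those by 1.07 on the log2 scale (edgeR adjusted p = 3.8e-06).

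The α-secretase genes parted in time. Adam17 had 808 and 670 CPM at 6 h, 616, 550 and 554 CPM at 24 h, 314, 316, 301, 297 and 297 CPM at 7 d and, under TGFβ, 326 and 401 CPM. Ex vivo, Adam17 stood at 320, 334, 304, 327 and 278 CPM. The 7 d and ex vivo libraries overlapped, and 7 d libraries were lower than 24 h libraries by 0.91 ± 0.11 (edgeR adjusted p = 4.5e-06). The gene Iah1, which overlaps Adam17, averaged 21.3 CPM at 6 h, 20.0 at 24 h and 22.4 CPM at 7 d, against 7.79 CPM ex vivo. The part of shared reads was not tested. Adam10 averaged 217 CPM at 24 h, 341 at 7 d and, under TGFβ, 699 CPM, against 452 CPM ex vivo, so that it was lower without TGFβ by 1.06 at 24 h and 0.41 at 7 d and higher with it by 0.63 (edgeR adjusted p = 3.4e-05, 0.015 and 0.0071). On the TPM scale its rise with TGFβ did not pass (0.29, limma adjusted p = 0.183). Over the 14 genes of a list of amyloid precursor family and secretase genes that were tested, 7 passed as higher and 4 as lower at 6 h, 6 and 4 at 24 h, 6 and 3 at 7 d, and 9 and 1 with TGFβ; the list includes the 4 members. The median log2 fold change of the list was 0.42, 0.41, 0.50 and 0.65 in the same order. The amyloid precursor relative Aplp2 averaged 848 CPM at 7 d and 105 CPM ex vivo (3.01, edgeR adjusted p = 2.7e-11), and the β-secretase gene Bace1 averaged 9.64 CPM at 6 h and 39.5 CPM ex vivo (-2.03, edgeR adjusted p = 8.2e-09).

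Mapt and Lrrk2 stayed at low levels in every microglial library. Mapt had at most 1.44 CPM in a cultured library, against 0.325, 0.813, 2.94, 1.79 and 0.723 CPM ex vivo, and passed as lower at 7 d (-2.06) and with TGFβ (-2.85, a call lost without TGFβ replicate 2, edgeR adjusted p = 0.0638). Lrrk2 had 0 and 0.0575 CPM at 6 h, 0.0427, 0.171 and 0.0430 CPM at 24 h, 0.368, 0.926, 0.780, 0.554 and 0 CPM at 7 d and, under TGFβ, 1.42 and 3.29 CPM. Ex vivo, Lrrk2 stood at 0.0928, 2.38, 1.61, 0.717 and 0.834 CPM. Its 1 count at 6 h against 105 counts ex vivo gives a ratio of 41.8 in favour of ex vivo (95% exact Poisson interval 7.34 to 1666, counting error only). The call at 6 h was lost without 6 h replicate 1 (edgeR adjusted p = 0.0946). Among 10 Rab substrates and regulators of the LRRK2 kinase, 6 passed as higher and 4 as lower at 6 h and 5 and 4 at 7 d, with medians of 0.60 and 0.18; its relative Lrrk1 averaged 71.4 CPM at 7 d and 196 CPM ex vivo (-1.46, edgeR adjusted p = 7.6e-08).

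Grn was low early in culture and high after 7 d. It had 213 and 186 CPM at 6 h, 946, 751 and 807 CPM at 24 h, 2470, 2520, 2856, 2240 and 1959 CPM at 7 d and, under TGFβ, 3179 and 3195 CPM. Ex vivo, Grn stood at 1727, 1572, 1797, 1657 and 1970 CPM. The 6 h libraries were the lowest, those of 24 h came next, and those with TGFβ exceeded all others. The log2 fold change was -3.13 ± 0.19 at 6 h, -1.06 ± 0.14 at 24 h, 0.47 ± 0.12 at 7 d and, under TGFβ, 0.87 ± 0.15 (edgeR adjusted p = 4.5e-10, 6.8e-06, 0.0025 and 0.00017). The steps of 2.07 between 6 h and 24 h and 1.53 between 24 h and 7 d also passed (edgeR adjusted p = 6.6e-07 and 4.6e-07). On the TPM scale, which moved the median of all genes at 7 d by -0.21, the rise of Grn at 7 d did not pass (0.23, limma adjusted p = 0.0785). Tmem106b, a lysosomal membrane protein gene, averaged 38.7 CPM at 6 h, 73.0 at 24 h and 143 CPM at 7 d, against 147 CPM ex vivo, and was lower at 6 h and 24 h by 1.93 and 1.01 on the log2 scale.

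Of 7 lysosomal partners of these genes, 2 passed as higher and 4 as lower at 6 h, 3 and 3 at 24 h, 5 and 1 at 7 d, and 5 and 1 with TGFβ. Their median log2 fold change was -1.48, 0.23, 0.98 and 0.82 in the same order. Sort1, the progranulin receptor sortilin, averaged 89.4 CPM at 6 h and 71.2 CPM at 24 h, against 622 CPM ex vivo (-2.80 and -3.13). The protease gene Ctsd averaged 71346 CPM with TGFβ and 8658 CPM ex vivo (3.04, edgeR adjusted p = 2.7e-09).

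The promoter of Grn (RefSeq, GRCm38.p6, plus strand, chr11:102430257-102430556) is printed because peaks of PU.1, H3K4me2, ATAC and H3K27ac overlapped it; capitals mark GAGGAA with its first bases at -176 and -164.
Grn: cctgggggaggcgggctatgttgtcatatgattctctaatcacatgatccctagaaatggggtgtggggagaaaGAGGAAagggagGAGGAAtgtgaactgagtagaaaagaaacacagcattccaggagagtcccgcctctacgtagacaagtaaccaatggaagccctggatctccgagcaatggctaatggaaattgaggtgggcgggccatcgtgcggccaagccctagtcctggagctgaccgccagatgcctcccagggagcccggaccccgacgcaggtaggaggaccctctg
ATAC and H3K27ac peaks overlapped this window ex vivo and at 7 d alike. Windows of other members, such as those of Cass4, Adam17, App and Sod1, overlapped peaks of every list too.

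The genes of autophagy and protein quality control rose together: Tbk1, Optn and Vcp all passed as higher at 6 h, 24 h and 7 d with edgeR, Tbk1 at 7 d on the count scale alone. Optn had 57.4 and 48.3 CPM at 6 h, 39.0, 33.6 and 48.6 CPM at 24 h, 25.1, 29.0, 29.4, 24.4 and 29.8 CPM at 7 d and, under TGFβ, 29.0 and 22.2 CPM. Ex vivo, Optn stood at 2.69, 2.00, 3.31, 2.58 and 2.95 CPM. The lowest cultured library was well above the highest ex vivo library. The log2 fold change was 4.28 ± 0.18 at 6 h, 3.89 ± 0.17 at 24 h, 3.34 ± 0.16 at 7 d and, under TGFβ, 3.23 ± 0.18 (edgeR adjusted p = 4.3e-12, 7.3e-12, 1.6e-11 and 4.0e-10). Vcp had 222 and 225 CPM at 6 h, 94.1, 99.1 and 102 CPM at 24 h, 74.7, 75.8, 77.2, 77.9 and 74.0 CPM at 7 d and, under TGFβ, 95.5 and 86.0 CPM. Ex vivo, Vcp stood at 39.0, 30.0, 38.6, 41.6 and 32.4 CPM. The 3 culture times without TGFβ overlapped neither each other nor ex vivo, and 6 h was the highest (log2 fold change 2.62 ± 0.11, edgeR adjusted p = 6.9e-12). Tbk1 rose by 1.05, 0.78 and 0.40 at 6 h, 24 h and 7 d on the log2 scale, but on the TPM scale it did not pass at 7 d (0.18, limma adjusted p = 0.129).

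Of 12 autophagy receptors and TBK1 partners, 7 passed as higher and 2 as lower at 6 h, 8 and 2 at 24 h, 7 and 2 at 7 d and, under TGFβ, 6 and 1, with medians of 1.10, 0.81, 0.43 and 0.28 on the log2 scale. Sqstm1, the autophagy receptor p62, averaged 7078 CPM at 6 h and 2906 CPM at 24 h, against 148 CPM ex vivo (5.58 and 4.29, edgeR adjusted p = 2.0e-12 and 1.8e-11). Ikbke, a kinase related to TBK1, averaged 79.7 CPM at 6 h and 32.1 CPM at 7 d, against 1.78 CPM ex vivo (5.46 and 4.15). Of 11 VCP cofactors, 8 passed as higher and 1 as lower at 6 h, 8 and 1 at 24 h, 8 and 0 at 7 d, and 5 and 0 with TGFβ, with medians of 1.03, 0.88, 0.49 and 0.32. The cofactor Nploc4 averaged 565 CPM at 6 h and 90.0 CPM ex vivo (2.65, edgeR adjusted p = 1.45e-09).

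The promoter of Optn (RefSeq, GRCm38.p6, minus strand, chr2:5064068-5064367) is printed because its H3K27ac differed between the lists. An H3K27ac peak lay over it at 7 d and none ex vivo. ATAC peaks overlapped it ex vivo and at 7 d alike, as did an H3K4me2 peak ex vivo. The window held none of the 3 motifs.
Optn: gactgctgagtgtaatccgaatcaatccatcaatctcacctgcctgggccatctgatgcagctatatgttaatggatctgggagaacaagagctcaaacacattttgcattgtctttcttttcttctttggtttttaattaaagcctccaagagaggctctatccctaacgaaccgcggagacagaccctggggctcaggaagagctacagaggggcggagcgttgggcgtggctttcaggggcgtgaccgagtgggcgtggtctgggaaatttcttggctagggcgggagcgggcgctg

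Sod1, which encodes the cytosolic superoxide dismutase, had 90.2 and 104 CPM at 6 h, 22.7, 29.3 and 29.9 CPM at 24 h, 35.3, 76.3, 74.4, 46.3 and 37.8 CPM at 7 d and, under TGFβ, 76.7 and 90.7 CPM. Ex vivo, Sod1 stood at 15.1, 8.75, 18.5, 8.10 and 11.3 CPM. All cultured libraries lay above all ex vivo ones, and at 7 d replicates 2 and 3 were the highest. The log2 fold change was 2.97 ± 0.31 at 6 h, 1.13 ± 0.28 at 24 h, 2.12 ± 0.26 at 7 d and, under TGFβ, 2.75 ± 0.31 (edgeR adjusted p = 2.9e-07, 0.0024, 2.1e-06 and 2.0e-06). The fall of 1.83 between 6 h and 24 h passed (edgeR adjusted p = 0.00059), and the rise of 0.99 between 24 h and 7 d (edgeR adjusted p = 0.011) did not pass without 7 d replicates 2 and 3 together (0.53, edgeR adjusted p = 0.102) or without 24 h replicate 1 (0.83, edgeR adjusted p = 0.0636). Sod2, the mitochondrial enzyme gene, averaged 89.1 CPM at 6 h, 213 at 24 h and 124 CPM at 7 d, against 23.8 CPM ex vivo. Tardbp, which encodes the RNA-binding protein TDP-43, had 323 and 278 CPM at 6 h, 230, 212 and 216 CPM at 24 h, 159, 197, 175, 160 and 171 CPM at 7 d and 185 and 168 CPM under TGFβ. Ex vivo, Tardbp stood at 103, 215, 216, 98.8 and 84.0 CPM, so that replicates 2 and 3 lay at the 24 h level and the other 3 libraries below every cultured library. It rose at 6 h (1.07 ± 0.28, edgeR adjusted p = 0.0031); at 24 h (0.62, edgeR adjusted p = 0.044) its call was lost without any 1 of the 24 h libraries or of ex vivo replicates 1, 4 and 5 (edgeR adjusted p = 0.0671 to 0.088). Tardbp overlaps Masp2, which averaged 60.3 CPM at 6 h, 31.2 at 24 h and 16.0 CPM at 7 d, against 24.3 CPM ex vivo. The part of shared reads in the values of Tardbp was not tested. Ex vivo replicates 2 and 3 also held the highest ex vivo neutrophil and monocyte marker sums, whose part was not tested either. Of 9 RNA-binding protein genes of amyotrophic lateral sclerosis, Tardbp included, 8 passed as higher and 1, Tia1, as lower at 6 h (median log2 fold change 0.79), and 2 and 3 at 7 d (median -0.06).

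**Figure D3:**
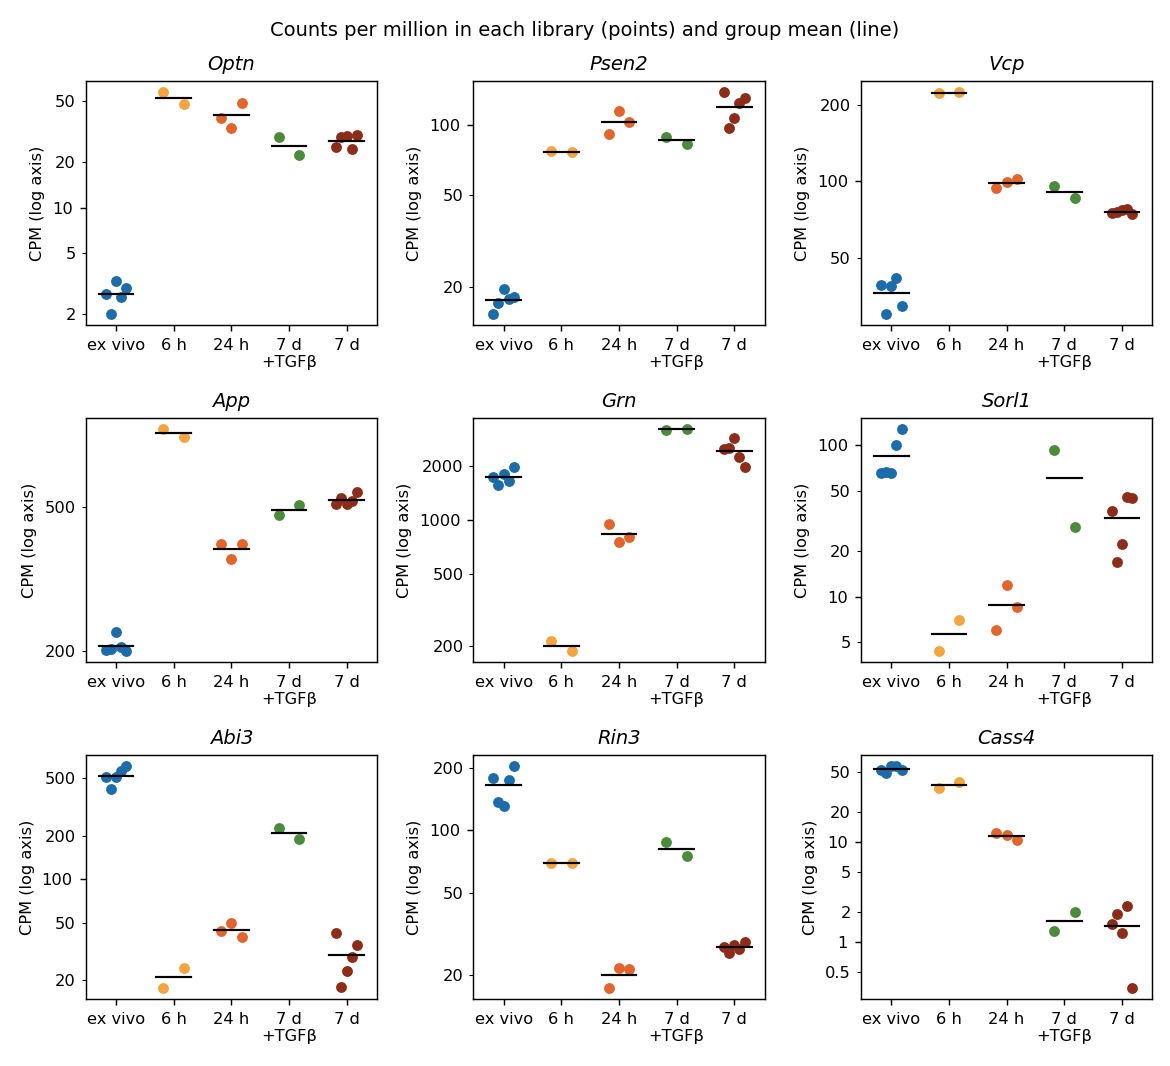
CPM (y axis, log scale) of 9 members in each library (points) with group means (lines), for ex vivo microglia, 6 h and 24 h of culture and 7 d with and without TGFβ. Optn, Psen2, Vcp and App lie above ex vivo in every cultured library, Grn is lowest at 6 h, Sorl1 is low at 6 h and 24 h, whose libraries overlap, and Cass4 falls in time to between 0.341 and 2.30 CPM at 7 d.

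Between culture times, 17 of 27 members passed at 24 h against 6 h (5 higher, 12 lower), where 41.8% of all genes did (22.0% higher, 19.8% lower). At 7 d against 24 h, 17 passed (9 higher, 8 lower), against 48.8% of all genes (27.2% higher, 21.6% lower). The lower calls at 24 h depended on the scaling, since total counts in place of TMM moved the median of all genes by 0.44: with total counts 5043 genes were higher and 1332 lower, against 3045 and 2734 with TMM, and Adam17 had 0.08 in place of -0.37. At 7 d against 24 h the TPM scale gave 2538 higher and 3687 lower, against 3769 and 2985. Without 6 h replicate 1, 11 members passed at 24 h against 6 h.

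The comparison of 7 d cultures with and without TGFβ asked what this cytokine, which microglia meet in the brain, changes. Of 27 members, 8 passed, 6 higher and 2 lower with TGFβ, while 16.1% of all genes passed (9.57% higher, 6.52% lower). The median log2 fold change of the members was 0.17 and that of all genes -0.04. The TPM scale, which moved the median of all genes by -0.12, gave 894 genes higher and 1521 lower, against 1325 and 902. Abi3, Rin3, Bin1 and Adam10 kept their calls whichever library was left out. Abca7, Zcwpw1, Vps35 and Psen2 did not, and with only 2 TGFβ libraries the fit without either assumes that the remaining one varies like the other groups.

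Abi3 had 224 and 190 CPM with TGFβ, against 42.6, 17.8, 23.3, 29.1 and 35.2 CPM without (log2 fold change 2.81 ± 0.23, edgeR adjusted p = 2.7e-07). Rin3 had 87.4 and 75.3 CPM with TGFβ, against 27.1, 25.5, 27.9, 26.7 and 28.7 CPM without (1.58 ± 0.15, edgeR adjusted p = 9.5e-07). Bin1 had 585 and 482 CPM with TGFβ, against 240, 242, 248, 277 and 223 CPM without (1.12 ± 0.16, edgeR adjusted p = 0.00011). In each of these 3 genes the libraries with TGFβ lay above those without and below all ex vivo libraries.

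Adam10 had 686 and 713 CPM with TGFβ, against 363, 356, 332, 310 and 344 CPM without (1.04 ± 0.18, edgeR adjusted p = 0.00051), and in CPM both TGFβ libraries exceeded the highest ex vivo library, which had 613 CPM. On the TPM scale they did not, at 217 and 241 TPM against 266 TPM in ex vivo replicate 2. Abca7 had 238 and 221 CPM with TGFβ, against 153, 61.1, 65.4, 128 and 145 CPM without (1.05 ± 0.32, edgeR adjusted p = 0.031). The low 7 d values of Abca7 were those of replicates 2 and 3, and its call was lost without TGFβ replicate 1 or 2 or 7 d replicate 3 (edgeR adjusted p = 0.0509 to 0.174). Zcwpw1 had 12.0 and 15.0 CPM with TGFβ, against 4.79, 10.6, 9.07, 6.73 and 4.35 CPM without (0.92 ± 0.30, edgeR adjusted p = 0.044), beside 29.1 CPM with TGFβ and 6.48 CPM without for its overlapping neighbour Pilra; the call was lost without 7 d replicate 1, 4 or 5 or either TGFβ library (edgeR adjusted p = 0.073 to 0.27).

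Vps35 had 251 and 241 CPM with TGFβ, against 391, 344, 327, 349 and 388 CPM without (-0.55 ± 0.17, edgeR adjusted p = 0.039). Psen2 had 88.8 and 82.5 CPM with TGFβ, against 138, 96.6, 107, 123 and 130 CPM without (-0.47 ± 0.14, edgeR adjusted p = 0.033). In both genes the libraries with TGFβ lay below those without and above ex vivo. Both calls were lost without 7 d replicate 1, 4 or 5 or either TGFβ library (edgeR adjusted p = 0.0562 to 0.239 for Vps35 and 0.0592 to 0.282 for Psen2). Of 14 retromer and sorting receptor genes tested, Vps35 and Sorl1 included, 0 passed as higher and 8 as lower with TGFβ with edgeR and with DESeq2 (median log2 fold change -0.54 with edgeR). The largest falls were those of the sorting nexin genes Snx2, at 75.3 CPM with TGFβ and 154 CPM without (-1.03, edgeR adjusted p = 0.00077), and Snx5, at 349 CPM with TGFβ and 694 CPM without (-0.99, edgeR adjusted p = 0.0044). Of 18 clathrin endocytosis genes, 0 passed as higher and 4 as lower with TGFβ (median -0.19), among them the scaffold gene Itsn1, at 11.5 CPM with TGFβ and 79.5 CPM without (-2.78, edgeR adjusted p = 1.6e-07). Of the 12 autophagy receptors and TBK1 partners, 0 passed in this comparison with edgeR or DESeq2, 2 had an unadjusted p under 0.05 with either tool, and 2 passed as lower with limma on log2(TPM + 1) and 3 on log2(TPM + 0.1). Of the 11 VCP cofactors, 0 passed with any of these tools, and 0 had an unadjusted p under 0.05 with edgeR or DESeq2 and 3 with limma on either TPM scale. For the 9 RNA-binding protein genes both counts were 0 with all 3 tools.

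**Figure D4:**
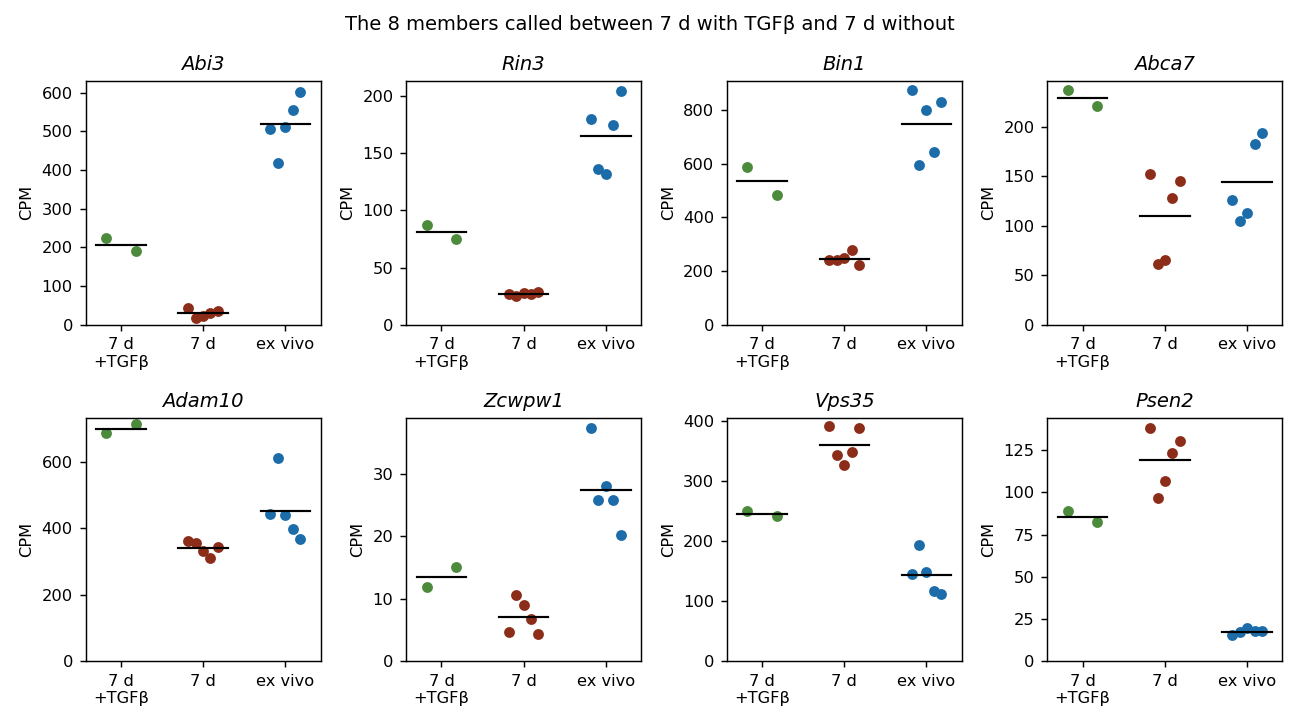
CPM (y axis, from 0) of the 8 members that passed between 7 d cultures with and without TGFβ, in each library (points) with group means (lines), beside ex vivo microglia. Abi3, Rin3 and Bin1 with TGFβ lie between 7 d and ex vivo, while Adam10 with TGFβ (686 and 713 CPM) lies above both in CPM. On the TPM scale Adam10 with TGFβ overlapped ex vivo.

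Peak lists were compared at the members as a description, since each list was called on pooled libraries and holds no replicate. The 23 members with a promoter window (none for Bin1, Vps35, Abi3, Mapt, Clu and Ptk2b) were looked at within 1 kb of the start. An ATAC peak lay there in 21 members at 7 d and in 21 ex vivo, an H3K27ac peak in 19 at 7 d and 18 ex vivo, an H3K4me2 peak in 23 and a PU.1 peak in 18. Of 27025 genes with a window, 48.5% had an ATAC peak at 7 d and 47.2% ex vivo, 36.6% and 38.1% an H3K27ac peak, 51.2% an H3K4me2 peak and 37.8% a PU.1 peak. Fermt2 and Slc24a4 had neither ATAC, H3K27ac nor PU.1 peaks at the start, and Epha1 and Lrrk2 had ATAC but no H3K27ac or PU.1 peaks.

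Over gene bodies and 10 kb on either side, which can take in neighbouring genes, the length under H3K27ac peaks summed to 213 kb at 7 d and 353 kb ex vivo over the 29 members, and was shorter at 7 d in 21 of them and longer in 6. The whole lists covered 50.9 Mb at 7 d and 61.3 Mb ex vivo, in 31349 and 24520 peaks. Their median peak width was 1117 bp at 7 d and 1777 bp ex vivo. The share of all genes with a shorter or longer length was not computed. These counts of members, and those by RNA below, therefore cannot be set against a general rate. Rin3 had 11.1 kb in 5 peaks at 7 d and 49.6 kb in 14 peaks ex vivo, of which 9 overlapped no 7 d peak. Picalm had 10.3 kb at 7 d and 33.9 kb ex vivo, Bin1 23.0 and 46.3 kb, Cass4 12.1 and 29.7 kb, and Abi3 6.35 and 22.2 kb. All 5 of these genes were lower in RNA at 7 d, but the length did not follow the RNA in every member. Of the 12 members lower in RNA at 7 d against ex vivo, 10 had a shorter and 1, Epha1, a longer H3K27ac length, and Clu had none in either list. Of the 9 higher in RNA, 3 had a longer and 6 a shorter length (Vps35, App, Grn, Tbk1, Vcp and Sod1). Sod1, for example, had 2.41 kb at 7 d and 4.06 kb ex vivo, and App 12.6 kb at 7 d and 13.7 kb ex vivo. The 3 with a longer length were Psen2, Optn and Ptk2b. Psen2 had 11.02 kb at 7 d and 3.49 kb ex vivo, Optn 2.22 kb in 2 peaks at 7 d and none ex vivo, and Ptk2b 41.3 kb at 7 d and 35.4 kb ex vivo. Grn had 8.33 kb at 7 d and 8.42 kb ex vivo.

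ATAC peaks had a median width of 201 bp in both lists, so their covered length follows their number and is not comparable with that of H3K27ac. ATAC peaks covered 54.6 kb at 7 d and 48.4 kb ex vivo over the members, more at 7 d in 18 members and less in 6. The whole lists covered 22.7 Mb at 7 d and 18.2 Mb ex vivo. Sorl1 had 17 ATAC peaks at 7 d, 10 of them overlapping none ex vivo, and 8 ex vivo, and Grn had 8 at 7 d and 3 ex vivo. Rin3 had 29 ATAC peaks at 7 d and 28 ex vivo, and 30 PU.1 peaks ex vivo, the most of any member.

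**Figure D5:**
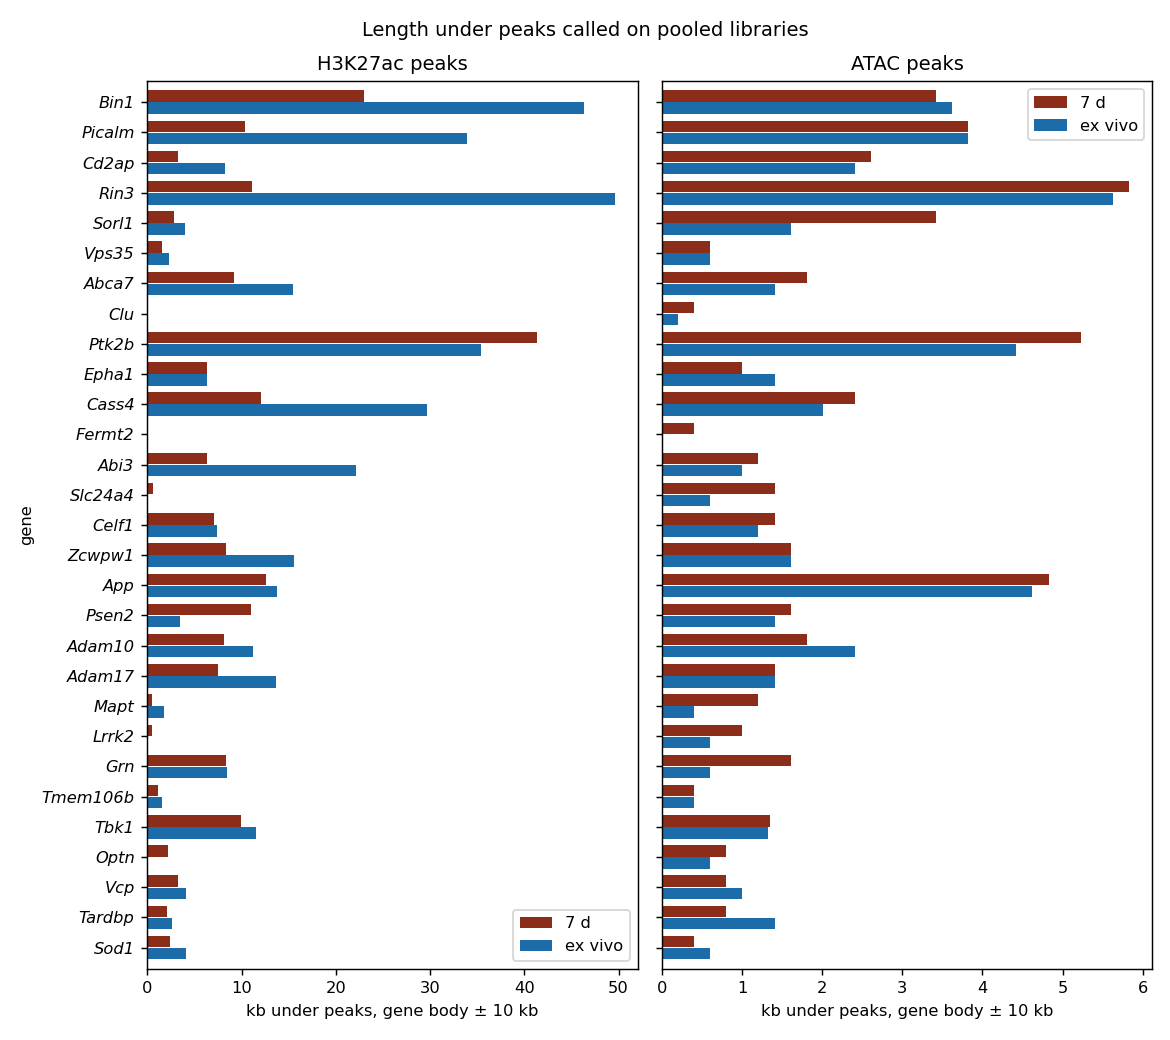
Length in kb under H3K27ac (left) and ATAC (right) peaks within each member's gene body and 10 kb on either side, at 7 d (red) and ex vivo (blue), from 1 pooled list per condition. H3K27ac at Rin3, Picalm, Bin1, Cass4 and Abi3 is shorter at 7 d, and at Psen2 and Optn longer.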

How the data were processed

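Poly(A) RNA was sequenced in 21 of the 41 samples. Read counts per gene were deposited by the authors as whole numbers. The deposited TPM table is called trimmed, a word left unexplained in the labels, and its columns sum to 568934 to 644847. Other values are peak intervals, which per the file headers the authors called with HOMER findPeaks on 1 pooled tag directory per condition, against pooled input except for ATAC. The submitters' processing notes name STAR, Bowtie2, HOMER, R 3.3.1 and mm10; for the role of each, and the strand of counting, nothing is given in the sources used here. The 8 input libraries were not analysed here.

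The count model was edgeR 4.0.16 under R 4.3.3 (TMM, filterByExpr, robust quasi-likelihood F test, Benjamini-Hochberg adjustment over all genes tested, threshold 0.05). The 17 microglial libraries formed 1 model and another model held the 9 ex vivo and lysate libraries. CPM use each model's effective library sizes, so ex vivo values differ between the models. Standard errors belong to the log2 fold change. Alternatives were DESeq2 1.42.0, RLE and total-count scaling, no filter, other sets of libraries, each library left out, a replicate block, and limma 3.58.1 on log2(TPM + 1) and log2(TPM + 0.1) with a mean of at least 1 TPM. The edgeR and limma fits, but not DESeq2, were run on simulated data in which few genes changed. Many more genes passed in most comparisons here, so the simulation does not test the scaling. Where a group had 0 counts of a gene, the bound given uses 3 counts for the whole group.

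Peaks were overlapped at 1 bp or more with RefSeq gene bodies and starts on GRCm38 (bedtools 2.31.1, Python 3.11.15). The promoter table matched 23 of 29 members. Motifs were searched on both strands as GAGGAA (PU.1), TGANTCA (AP-1) and TCACGTGA (CLEAR), with the start base as 0.

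The members, the 10 pathway lists and the 12 marker lists were chosen with earlier results of these data known. Values of every library are given, per comparison, for up to 3 largest rises and 3 largest falls among members that passed and whose higher group averaged 5 CPM or more, and for all that passed between 7 d with and without TGFβ; of each pathway list, up to 2 such genes are named, and not all lists are described. Gapdh was at most 4.68 CPM in every library, far below what is usual for this enzyme gene; the cause was not tested. No pair of libraries of a group agreed within sampling noise (chi-square per degree of freedom at least 8.94).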

Additional observations from a re-analysis of the deposited data

Results flagged for a closer look

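In 3 of the 87 groups of 4 or 5 libraries looked at, 1 library stood far from the others, where chance gives about 5%. All 3 cases were ex vivo replicate 3. Its Clu value was 17.9 CPM, against 0.0464 to 4.23 CPM in the other ex vivo libraries. Its Fermt2 value was 1.21 CPM, against 0 to 0.287 CPM. Its App value was 226 CPM, against 200 to 206 CPM. The same library had the highest ex vivo sums of astrocyte (354 CPM), oligodendrocyte (197 CPM), neuronal (14.9 CPM) and choroid plexus and ependymal markers (108 CPM), and the part of these cells in the 3 values was not tested.

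Members that passed as higher at 1 culture time and lower at another were compared between the times directly. They were picked for opposite calls against the same ex vivo libraries, which makes a difference between the times likely beforehand. The p-values below are therefore no separate evidence. The 6 h call of Picalm was lost in several alternatives given above. The effect on Picalm was lower at 24 h than at 6 h by 1.37 on the log2 scale (-1.37, edgeR adjusted p = 0.000178; -0.88 at 24 h and 0.49 at 6 h). It was also lower at 7 d than at 6 h (-1.11, edgeR adjusted p = 0.000149; -0.62 at 7 d). For Epha1 the difference between 7 d and 6 h was -3.53 (edgeR adjusted p = 9.14e-07; -1.90 at 7 d and 1.63 at 6 h), at levels of at most 7.53 CPM. For Grn the effect was higher at 7 d than at 24 h by 1.53 (edgeR adjusted p = 4.55e-07; 0.47 at 7 d and -1.06 at 24 h) and higher at 7 d than at 6 h by 3.59 (edgeR adjusted p = 3.53e-10; -3.13 at 6 h).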

How the results depend on the processing

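Of 3805 values of single members recomputed under the alternatives, 3528 kept their direction and side of the threshold, 185 no longer passed, 89 newly passed and 3 reversed, and 145 of 218 pairs of member and comparison kept both throughout. The reversals of sign were Tbk1 with TGFβ against ex vivo and Adam17 at 24 h against 6 h. Tbk1 had -0.34 on both the log2(TPM + 1) and log2(TPM + 0.1) scales (limma adjusted p = 0.0462 and 0.0455). With edgeR its log2 fold change was 0.01, which did not pass. Adam17 had 0.075 with total counts (edgeR adjusted p = 0.706), against -0.37 with TMM. The cause was not tested. The number of members that passed between 7 d with and without TGFβ, 8, was 5 with only these groups in the fit, 1 with the paired libraries fitted unpaired, 10 with DESeq2, 11 without 7 d replicates 2 and 3, and 4 to 8 when 1 library was left out. At 24 h against 6 h the 17 became 11 to 16 when 1 library was left out. In the other comparisons the number stayed within 1.5 times its value under every alternative. Without 7 d replicates 2 and 3, 21 passed at 7 d against ex vivo and 15 against 24 h.

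The labels do not tie the replicate numbers together, and in no comparison with 3 or more pairs did every pair of same-numbered libraries deviate together (correlations over all comparisons of -0.19 to 0.46). With 2 pairs, both were positive at 24 h against 6 h (0.353 and 0.347) and between 7 d with and without TGFβ (0.174 and 0.456). Both were negative at 6 h against ex vivo (-0.024 and -0.194) and with TGFβ against ex vivo (-0.034 and -0.045). In a group of 2 libraries the deviations from the mean mirror each other, so the 2 correlations are not independent. Whether those numbers mark a shared batch was not tested. With the replicate block, 4 members passed between 7 d with and without TGFβ, 24 at 24 h against 6 h, and 23, 20, 21, 21, 13 and 15 in the lysate, 6 h, 24 h, 7 d, TGFβ against ex vivo and 7 d against 24 h comparisons. With a peak counted only if 50% of it lay inside, 16 members had H3K27ac at the start at 7 d and 12 ex vivo. Total-count scaling, the unpaired fit of the paired libraries, the TPM fit of the lysate and the Clu bounds without ex vivo replicate 3 were chosen after seeing the data. Groups of 2 libraries limit the 6 h and TGFβ comparisons, and members under 1 CPM, such as Clu and Lrrk2 in culture, rest on few counts.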

Other observations

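C9orf72, whose repeat expansion causes amyotrophic lateral sclerosis and frontotemporal dementia, works in a complex with SMCR8 and WDR41. Its mouse ortholog, listed as 3110043O21Rik, averaged 189 CPM at 6 h and 96.9 CPM at 24 h, against 52.4 CPM ex vivo (log2 fold changes 1.85 and 0.89, edgeR adjusted p = 4.9e-08 and 9.3e-05). Smcr8 averaged 1360 CPM at 6 h, 842 at 24 h and 238 CPM at 7 d, against 176 CPM ex vivo (2.95, 2.25 and 0.43; edgeR adjusted p = 1.1e-09, 1.2e-08 and 0.022). The third gene of the complex, Wdr41, averaged 33.3 CPM at 6 h and 67.3 CPM at 24 h, against 58.2 CPM ex vivo. Unlike its partners it passed as lower at 6 h (-0.81, edgeR adjusted p = 4.4e-06), and it was higher at 24 h than at 6 h by 1.01 (edgeR adjusted p = 5.1e-06). All 3 were higher in ex vivo microglia than in lysate.

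Of 18 clathrin endocytosis genes tested, 11 passed as higher and 2 as lower at 6 h, 9 and 3 at 24 h, and 11 and 4 at 7 d (median log2 fold changes 0.83, 0.49 and 0.60). Itsn1 averaged 47.2 CPM at 6 h, 64.3 at 24 h and 79.5 CPM at 7 d, against 10.6 CPM ex vivo. Ap2s1, a subunit of the clathrin adaptor AP-2, averaged 46.5 CPM at 24 h and 132 CPM at 7 d, against 22.5 CPM ex vivo (1.04 and 2.54). Of the 14 retromer and sorting receptor genes, 6 passed as higher and 3 as lower at 6 h, 7 and 3 at 24 h, and 11 and 2 at 7 d (medians 0.31, 0.29 and 0.91).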
